A study of Drosophila melanogaster with 2 samples.

Results

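The alpha and beta tubulin genes of Drosophila melanogaster were examined for binding of a GFP-tagged OdsH protein, a homeodomain protein, in whole larvae. The set held 8 of the 13968 protein-coding genes on the chromosome arms. It was taken by name from the annotation and not by a measured value, though earlier results of these data were known. The alpha genes were alphaTub84B, alphaTub84D, alphaTub85E and alphaTub67C, and the beta genes were betaTub56D, betaTub60D, betaTub85D and betaTub97EF. Chromatin immunoprecipitation with an antibody against GFP had been carried out on transgenic wandering larvae of the third instar that stably expressed OdsH with GFP at its C terminus. Their sex was not collected, their age is given as unknown, and the promoter of the transgene is not known here. There was 1 group with 2 biological replicates and no untagged group, so nothing was compared between conditions, and whole larvae mix all tissues.

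Alpha and beta tubulin form the heterodimer from which microtubules are built, and most animals carry several genes for each. In flies, alphaTub84B, alphaTub84D and betaTub56D are known for expression in nearly all tissues. The others are known for restricted expression: alphaTub67C in the female germline and early embryo, betaTub85D in the male germline, betaTub60D in the mesoderm and its muscles, and alphaTub85E in the mesoderm, testis and sense organs. betaTub97EF is known from the gut and some other tissues and was placed in neither class.

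Each value below is the signal that the authors' caller gave to a peak, whose scale the sources used here do not give, and the rank of that signal in its list. The thresholded list held 7223 peaks, set by the irreproducible discovery rate, a measure of agreement between replicates. The relaxed lists, from both replicates pooled and from each replicate, held 30000 peaks each and include background. All thresholded peaks were among the 7223 highest pooled signals. Listing thus followed pooled rank and was no replicate test of a single peak. Of these peaks, 7173 had a summit within 200 bp in both replicate lists. The caller also gave each peak a −log10 q value, higher for more significant peaks. All coordinates are in the dm6 build, counted from 1. A gene was counted as bound when a thresholded summit lay inside it or within 5 kb of it.

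Sequences are shown for the gene with the strongest summit at its own start site, for its near relative without a thresholded summit, for the gene with no peak in any list, and for the summit inside betaTub97EF. They are printed in the direction of transcription, from the Release 6 reference sequence, with TAAT (the homeodomain core) and TATAAA (the TATA box), on either strand, in capitals.
alphaTub84B, 100 bases upstream of the start site, chr3R:7086499-7086598, plus strand: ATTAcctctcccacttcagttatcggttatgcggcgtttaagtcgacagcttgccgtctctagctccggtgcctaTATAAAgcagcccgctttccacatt
alphaTub84D, 100 bases upstream of the start site, chr3R:7530653-7530752, plus strand: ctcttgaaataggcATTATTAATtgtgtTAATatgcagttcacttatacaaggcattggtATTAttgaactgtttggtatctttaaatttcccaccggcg
alphaTub85E, 100 bases upstream of the start site, chr3R:9733251-9733350, minus strand: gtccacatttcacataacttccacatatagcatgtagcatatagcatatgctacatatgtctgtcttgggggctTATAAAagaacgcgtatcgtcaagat
alphaTub84B, intron summit, chr3R:7086837-7086937, plus strand: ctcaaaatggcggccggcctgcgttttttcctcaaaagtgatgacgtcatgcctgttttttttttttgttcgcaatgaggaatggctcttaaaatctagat
betaTub97EF, intron summit, chr3R:27987478-27987578, minus strand: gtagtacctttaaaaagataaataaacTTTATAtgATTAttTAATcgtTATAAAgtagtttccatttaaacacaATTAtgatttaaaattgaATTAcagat

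Of the 8 tubulin genes, 5 were bound within the gene or 5 kb of it: alphaTub84B, betaTub56D, betaTub60D, betaTub85D and betaTub97EF. Over all coding genes 56.1% met the same rule, and 59.5% of those from 1500 to 8000 bp long, a range that holds every member other than betaTub97EF, so the count was near the background. Within 1 kb of a start site, 4 members had a thresholded summit, against 28.0% of coding genes. When a summit counted only where its nearest coding start site was the member's own, 3 members were left, namely alphaTub84B, betaTub60D and betaTub97EF, against 26.3%. No test of the set was made, since 8 genes chosen with earlier results known are not replicates.

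In the relaxed pooled list 7 of the 8 genes had a summit in the window, against 82.6% of coding genes, and 5 had one within 1 kb of a start site, against 57.0%. The exception in the wider window was alphaTub85E. Taking the 7223 strongest peaks of one replicate, 5 members were bound in replicate 1 (background 55.9%) and 4 in replicate 2 (background 56.2%). The member lost in replicate 2 was betaTub56D, whose strongest summit there ranked 7225.

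**Figure D1:**
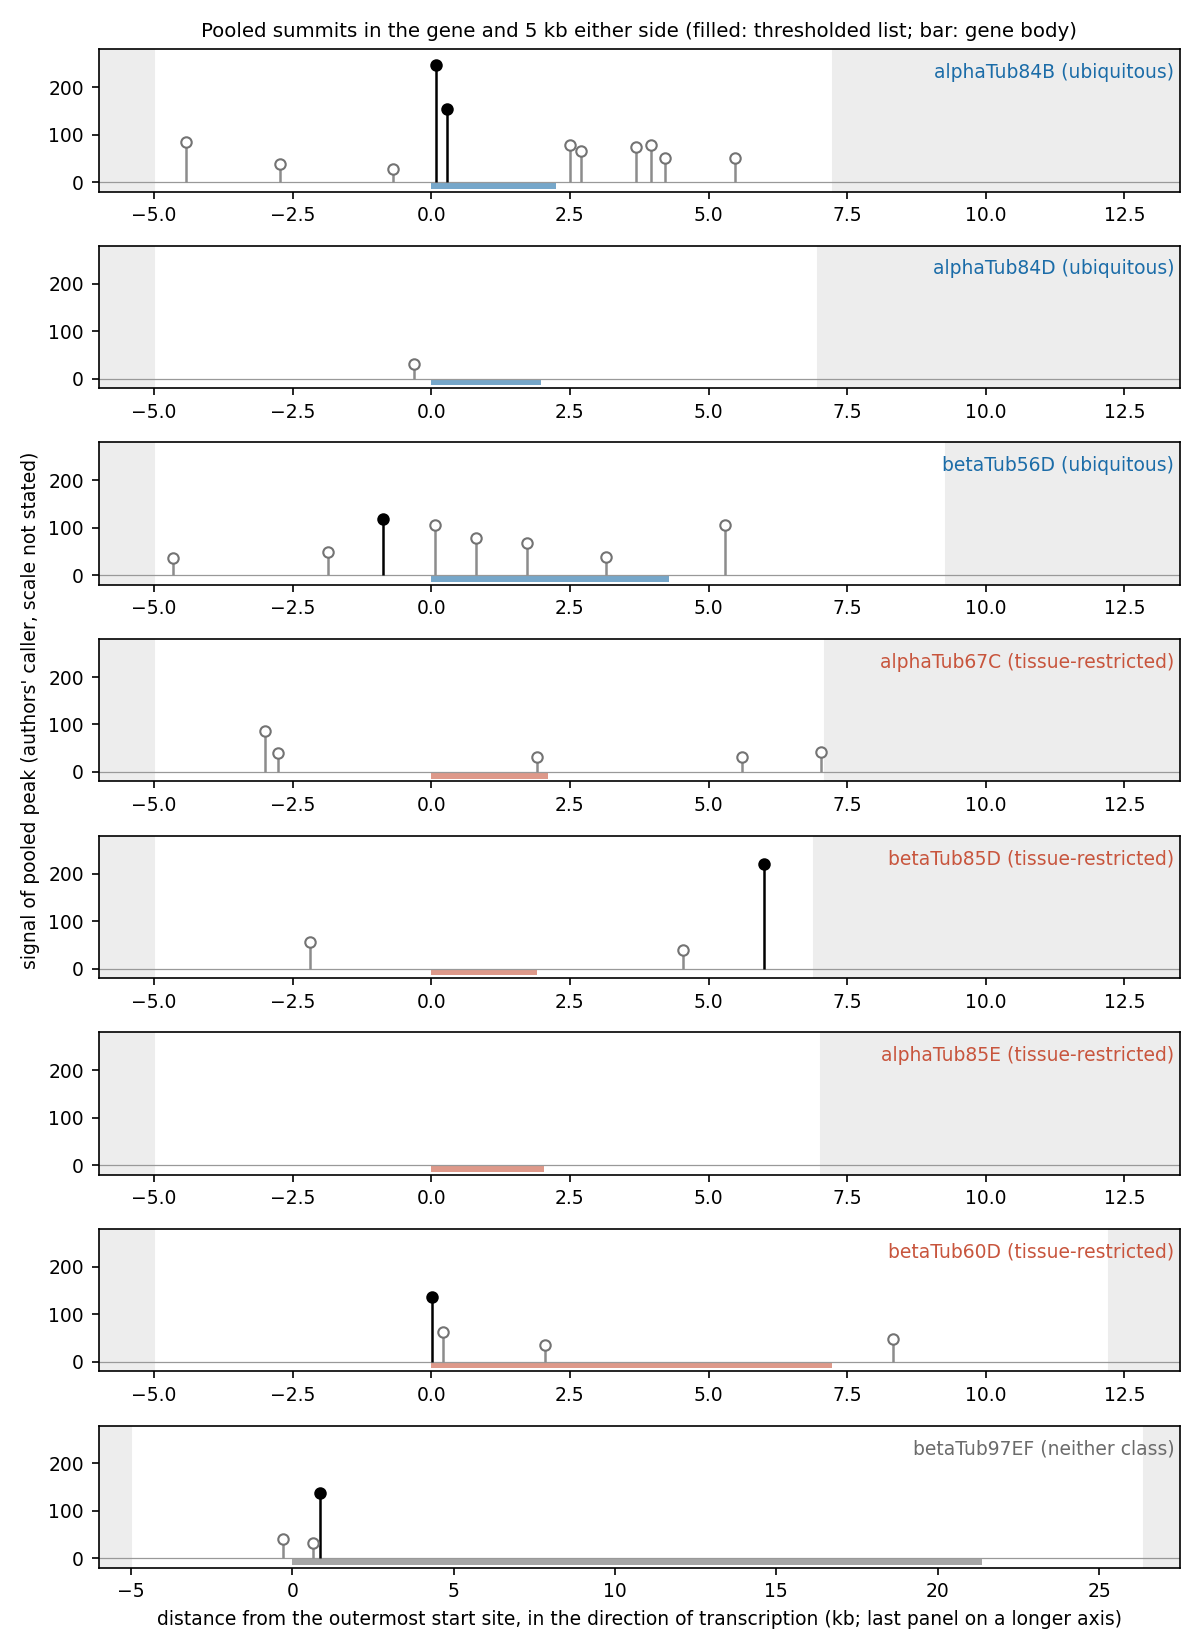
Signal of the pooled peaks (vertical axis, scale of the authors' caller) at their distance in kb from each gene's outermost start site, in the direction of transcription, with filled points for thresholded peaks, open points for other relaxed peaks, a bar for the gene and grey shading beyond 5 kb. The 2 thresholded points of alphaTub84B, at 246 and 153, and those of betaTub60D and betaTub97EF, at 136 and 137, lie within the gene, while that of betaTub85D, at 221, lies 6006 bp from its start site.

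alphaTub84B, the main alpha tubulin gene (FBgn0003884, 3R 7086599 to 7088839, plus strand), had the strongest summit of the set, just inside its start. The peak spanned 7086592 to 7086724 with its summit at 7086677, 78 bp downstream in the 5′ UTR, and had a pooled signal of 246 and rank 2416. Its signal was 153 in replicate 1 and 95.4 in replicate 2 (mean 124 ± 40.4, SD, n = 2). Replicate 1 was the higher, with ranks of 1593 and 4055.

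A second thresholded peak of alphaTub84B, 7086665 to 7087108, overlapped the first and had its summit at 7086887, 288 bp downstream of the start site in an intron. Its pooled signal was 153, with 85.6 in replicate 1 and 67.8 in replicate 2. The sequence around this intron summit, shown above, held no TAAT, and neither did the 101 bp around the 5′ UTR summit. Of all thresholded summits, 75.0% held TAAT within 50 bp.

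Beyond its start site alphaTub84B had weak summits on both sides, none of them thresholded. The relaxed pooled list held 11 summits in its window, the most of any member. Past the end of the gene, from 2494 to 5475 bp downstream of the start site, pooled signals were 50.5 to 78.9. Their −log10 q values were 1.06 to 2.44. Each of these summits had a partner within 200 bp in both replicates. The pooled list was itself called on both replicates, so the partners are no separate support. Upstream, the strongest was 83.7, at 7 bp from the start site of Dpck, and a summit at 27.4 lay nearest to Tailor, whose start site is 516 bp from that of alphaTub84B. The downstream summits farthest from alphaTub84B lay nearest to e(y)2b, at 1861 to 3645 bp.

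alphaTub84D, the other widely expressed alpha gene (FBgn0003885, 3R 7530753 to 7532732), had no thresholded summit. Its single pooled summit, at 7530440, lay 313 bp upstream of the start site but 199 bp from that of its neighbour Rtnl2, with a signal of 30.5 and rank 26962 of 30000. Replicate 1 held it at 14.8, the lowest signal to which that list reaches, and replicate 2 listed no summit in the window. The only other listed summit, at 15.0 in replicate 1, lay 45 bp from the start site of alpha-Est5. On the order of pooled signals, alphaTub84B stood at 246 and alphaTub84D at 30.5.

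The coding sequences of alphaTub84B and alphaTub84D were 92.2% identical over 1350 aligned bases, the closest pair among the members of either family. In such pairs reads can match both genes. Words of 32 bases that occur once in the reference made up 86.0% of the coding sequence of alphaTub84B and 84.2% of that of alphaTub84D, and every word in the 500 bp on either side of each start site. Both start sites thus lay in sequence that is unique at this word length. How the authors treated reads with several matches is not given in the sources used here.

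betaTub56D, the widely expressed beta gene (FBgn0284243, 2R 19447319 to 19451600, minus strand), had its thresholded summit at the start of its neighbour. The peak, 19452243 to 19452686, had its summit at 19452465, 865 bp upstream of the outer start site of betaTub56D and 39 bp from that of CG7744. The start sites of these genes are 904 bp apart. The pooled signal was 118 (rank 6556), with 54.0 in replicate 1 and 59.3 in replicate 2 (mean 56.7 ± 3.70, SD, n = 2).

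The summit at betaTub56D's own outer start site fell just short of the thresholded list. It lay at 19451530, 70 bp downstream in the 5′ UTR, with a pooled signal of 105 and rank 7484, where the list ended at rank 7223 with a signal of 109. Replicate 1 gave it 78.8 (rank 4194) and replicate 2 gave 47.4 (rank 9271), at a summit 15 bp upstream of the start site. The replicates were thus further apart here (SD 22.2 about a mean of 63.1) than at the neighbour's start site.

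Weaker summits of the relaxed pooled list lay inside betaTub56D. Those in its introns had pooled signals of 78.3, at 812 bp from the outer start site, and 68.4, at 274 bp upstream of the inner one, and one in a coding exon had 38.7. Their −log10 q values were 2.40, 1.94 and 0.588, in that order. Each had a partner in both replicates, on which the pooled list was itself called, so the partners are no separate support. At the other end of the window, a summit with a signal of 106 and rank 7410 lay 15 bp from the start site of EloC. A summit of 35.4, seen in the pooled list and in replicate 1, lay 83 bp from the shared start site of mei-W68 and par-1.

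betaTub60D, the beta gene of the mesoderm (FBgn0288686, 2R 24305881 to 24313099, plus strand), was bound at its start site. The peak, 24305668 to 24306111, had its summit at 24305890, 9 bp inside the gene, and a pooled signal of 136 and rank 5486. Replicate 1 gave 54.2 (rank 6944) and replicate 2 gave 85.7 (rank 4640; mean 70.0 ± 22.3, SD, n = 2). The summits of the replicates lay at 24305889 and 24305891. No other coding gene lies within 5 kb, and the nearest other coding start site is 10482 bp away; noncoding genes were not examined.

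A second summit of betaTub60D, 218 bp downstream in a coding exon, had a pooled signal of 61.8 and was listed in replicate 2, at 53.3, but not in replicate 1. An intron summit at 2045 bp had signals of 19.2 and 19.9 in the replicates. One past the gene's end had a pooled signal of 48.8, with 23.0 and 21.1 in the replicates. In the pooled list the −log10 q values of these summits were 1.60, 0.456 and 0.988, in that order.

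betaTub97EF, which has the longest gene of the set at 21377 bp (FBgn0003890, 3R 27967008 to 27988384, minus strand), was bound in an intron. The peak, 27987306 to 27987749, had its summit at 27987528, 856 bp downstream of the start, and a pooled signal of 137 and rank 5380. Replicate 1 gave 61.7 (rank 5889) and replicate 2 gave 71.4 (rank 5799; mean 66.6 ± 6.83, SD, n = 2). The replicates ranked it alike.

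The intron summit of betaTub97EF, whose sequence is shown above, was rich in A and T. Its 101 bp held 81.2% A and T, a share that 2.60% of thresholded summits reach, and 4 matches to TAAT. A weak pooled summit lay 274 bp upstream of the start site, with a signal of 40.4 (−log10 q 0.649), and 20.5 and 23.7 in the replicates. Replicate 2 also listed one in the 5′ UTR, 40 bp downstream, at 27.2. No pooled summit lay in the rest of the gene beyond the intron pair at 655 and 856 bp.

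betaTub85D, the beta gene of the male germline (FBgn0003889, 3R 9408383 to 9410282, minus strand), counted as bound only through a distant neighbour. The peak in its window, 9404054 to 9404497, had its summit at 9404276, 6006 bp from the start site of betaTub85D and 7 bp from that of CG9356. Its pooled signal was 221 (rank 2831), with 91.0 in replicate 1 and 132 in replicate 2 (mean 111 ± 28.9, SD, n = 2). The other pooled summits, at 55.3 and 39.9, lay nearest to alpha-Man-IIa and to the shared start site of BBIP1 and CG8135, and the former had a partner in replicate 1 only, nearest to Task7. No list held a summit inside betaTub85D or within 1 kb of its start site.

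alphaTub67C, the maternal alpha gene (FBgn0087040, 3L 9681268 to 9683370, plus strand), had no thresholded summit. Its strongest pooled summit, at 86.8 and rank 9308, lay 3002 bp upstream of its start site and 837 bp from that of the neighbour fry. Its signal was 43.0 in replicate 1 and 41.2 in replicate 2. Inside the gene, a summit in the coding exon had a pooled signal of 30.7 and rank 26803, with 15.4 and 16.0 in the replicates, all near the end of the lists. The other pooled summits, at 38.9, 42.6 and 32.3, lay nearest to fry or CG16719.

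alphaTub85E, an alpha gene of mesoderm, testis and sense organs (FBgn0003886, 3R 9731221 to 9733250, minus strand), had no summit in its window in any list, relaxed lists included. In the pooled list 17.4% of coding genes had none in the same window. The limit of the list was a pooled signal of 27.2, and binding below that level was not detectable here. Read numbers are not known here, and no depth can be set beside this.

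**Figure D2:**
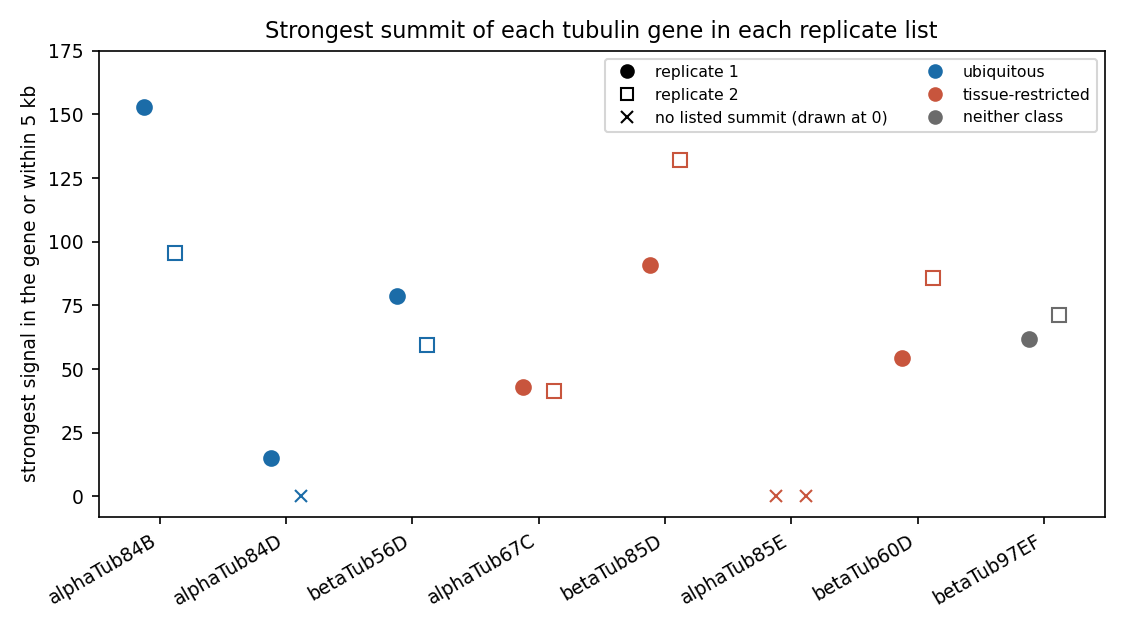
Strongest signal within each gene or 5 kb of it (vertical axis, scale of the authors' caller) in replicate 1 (filled circles) and replicate 2 (open squares), coloured by class, with crosses at 0 where the list held no summit. Replicate 1 is the higher at alphaTub84B (153 against 95.4) and replicate 2 at betaTub85D (91.0 against 132) and betaTub60D (54.2 against 85.7).

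Ubiquitous and tissue-restricted genes overlapped in their signals. In the wider window, the strongest pooled signals of the ubiquitous genes were 246 (alphaTub84B), 118 (betaTub56D) and 30.5 (alphaTub84D), with a median of 118. Those of the restricted genes were 221 (betaTub85D), 136 (betaTub60D), 86.8 (alphaTub67C) and none for alphaTub85E, with a median of 111. Of the ubiquitous genes 2 of 3 were bound and of the restricted genes 2 of 4, where 56.1% of all coding genes were bound. In replicate 1 the medians were 78.8 and 48.6, and in replicate 2 they were 59.3 and 63.5, so their order turned between replicates. The ubiquitous medians were different summits of betaTub56D, at its own start site in replicate 1 and at that of CG7744 in replicate 2. With betaTub97EF counted as tissue-restricted, the pooled median of that class was 136, above that of the ubiquitous genes. With betaTub97EF counted as ubiquitous, the ubiquitous median was 128, still above 111, so the order turned under the first choice only. The pooled summits behind 118, 30.5, 221 and 86.8 lay nearest to the start sites of CG7744, Rtnl2, CG9356 and fry, and not of the members.

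Within 1 kb of a start site, all 3 ubiquitous genes had a relaxed pooled summit, that of alphaTub84D lying nearer to Rtnl2, against 1 of the 4 restricted genes, betaTub60D, where 57.0% of coding genes had one. A thresholded summit was found there in 2 of 3 and in 1 of 4, where 28.0% of coding genes had one, so the count of restricted genes was about the background. With summits nearest to neighbours' start sites left out of the wider window, 1 ubiquitous gene (alphaTub84B) and 1 restricted gene (betaTub60D) were bound. Of all coding genes, 26.3% were bound by that rule. Neither germline gene, betaTub85D nor alphaTub67C, had any relaxed pooled summit within 1 kb of its start. In whole larvae, few bound cells and weak binding in many cells cannot be told apart. No test was made between classes of 3 and 4 genes.

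Set against all coding genes, no member had a strongest summit near the top of the range in the wider window. The shares of genes that reached the members' signals ran from 29.8% to 81.2%. In the wider window, 29.8% of coding genes had a pooled summit as strong as that of alphaTub84B, 48.8% as strong as that of betaTub97EF, 49.2% as that of betaTub60D and 53.7% as that of betaTub56D. The value at betaTub85D was reached by 33.4%, at alphaTub67C by 62.5% and at alphaTub84D by 81.2%. Within 1 kb of a start site, 11.6% of coding genes reached the signal of alphaTub84B and 22.7% that of betaTub60D.

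**Figure D3:**
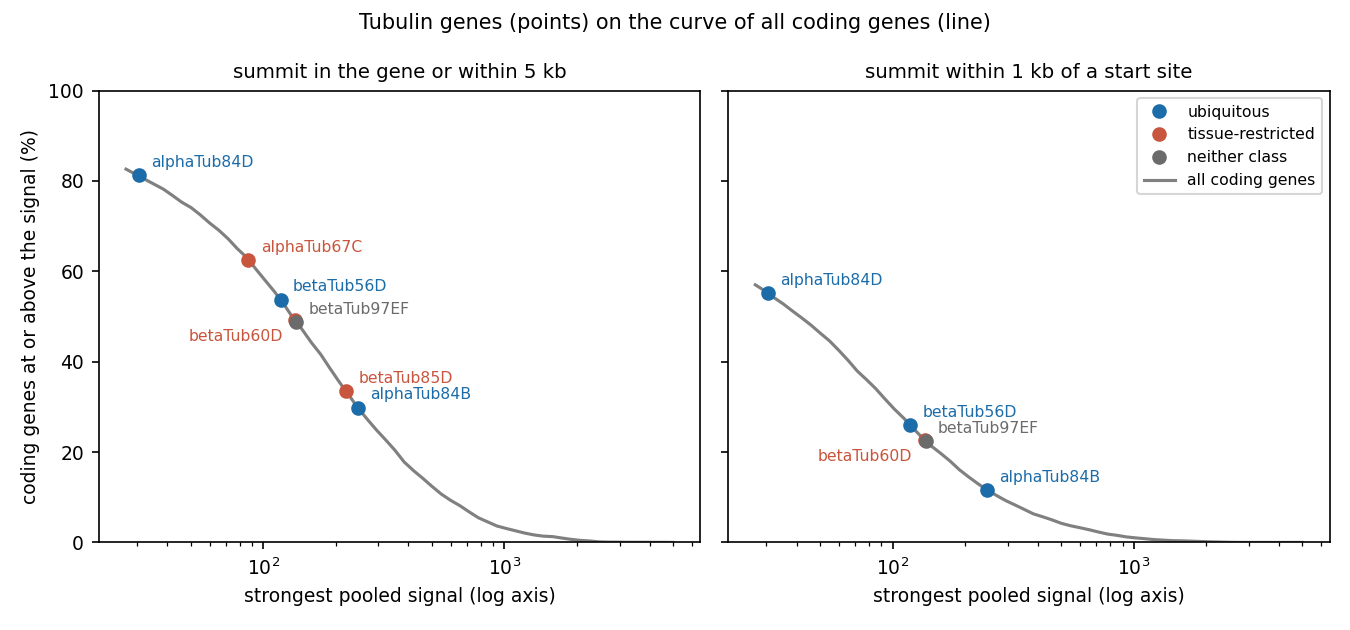
Share of all coding genes (vertical axis, %) whose strongest pooled summit reached a given signal (horizontal log axis), as a line, with the tubulin genes that had a summit as points coloured by class, for summits in the gene or within 5 kb (left) and within 1 kb of a start site (right). alphaTub84B lies highest in signal, at 246, reached by 29.8% of genes on the left and 11.6% on the right.

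The genes whose start sites were most like that of alphaTub84B over the 2 replicates were found by the distance between log2 signals, among 7248 coding genes with a summit within 1 kb in both. Tailor was at a distance of 0.000, since its start site shares the same summits. The next were Vps60 and anchor, which share a summit with signals of 144 and 98.8 (distance 0.096). CG3386 (136 and 105, distance 0.219) and RpL22, a ribosomal protein gene (142 and 109, distance 0.220), followed. Over 2 replicates this likeness describes signal height only.

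The balance of the replicates differed between members. Over the 7173 thresholded peaks with a partner in both, the log2 ratio of replicate 2 to replicate 1 had a median of 0.26 (SD over peaks 0.47). At the start of alphaTub84B it was -0.68, and 2.72% of thresholded peaks had a lower ratio. Its intron summit gave -0.34, with 7.47% lower. betaTub56D (0.13) and betaTub97EF (0.21) lay near the median, and betaTub85D (0.54) and betaTub60D (0.66) above it, with 86.4% of peaks lower than betaTub60D. With 1 value in each replicate these ratios have no error of their own.

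**Figure D4:**
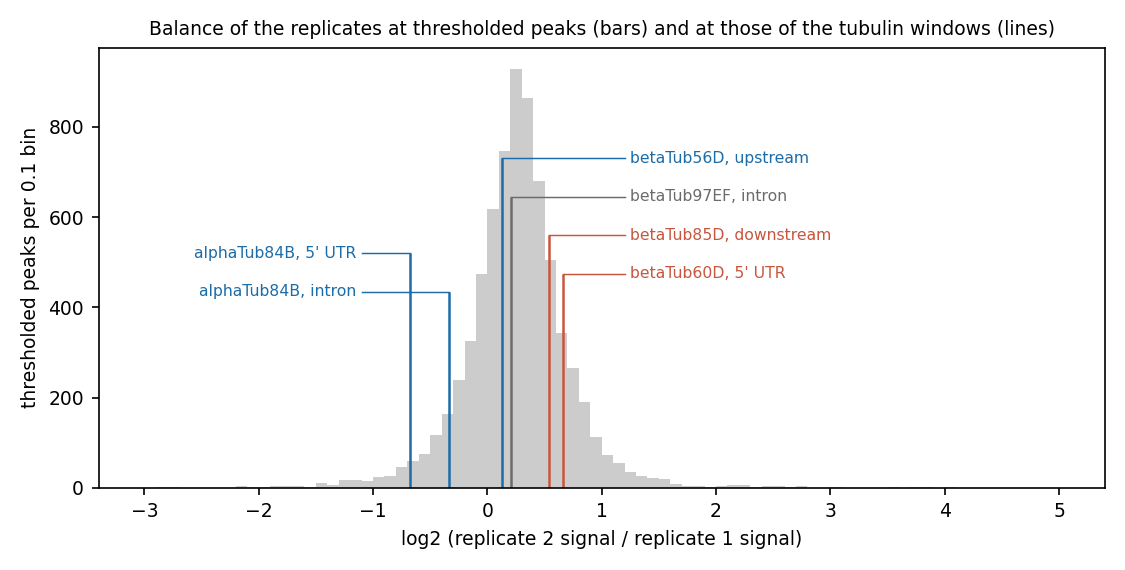
Number of thresholded peaks (vertical axis, bins of 0.1) by the log2 ratio of replicate 2 to replicate 1 signal (horizontal axis), as bars, with a line at the ratio of each thresholded peak in the tubulin windows, coloured by class. The 2 lines of alphaTub84B lie left of 0, at -0.68 and -0.34, and the others lie between 0.13 and 0.66.

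Of the start sites, 3 had a TATA box in a usual place for one. TATAAA on the gene's strand began 25 bp upstream of the start site in alphaTub84B and 26 bp upstream in alphaTub85E, as the capitals above show, and 26 bp upstream of the outer start site of betaTub56D. A first base 20 to 35 bp upstream was found at 6.21% of the 19276 start sites of coding genes, a window chosen after the sequences had been seen. Of these 3 genes, alphaTub84B had a thresholded summit nearest to its own start site, betaTub56D one just below the threshold and alphaTub85E none. The box was thus found at start sites with and without a peak.

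The homeodomain core occurred in promoters with and without a peak. In the 250 bp upstream of the start site, TAAT on either strand occurred 10 times in alphaTub84D, which had no thresholded summit, 6 times in alphaTub67C and 2 times in betaTub85D. It occurred 4 times in alphaTub84B and in betaTub97EF and 7 times at the outer start site of betaTub56D. At betaTub60D, alphaTub85E and the inner start site of betaTub56D it did not occur. Such a stretch held TAAT at 88.9% of coding start sites. The palindrome TAATTA, which contains TAAT on both strands, was found once, at the outer start site of betaTub56D, against 17.7% of start sites. The site of DREF, TATCGATA, was found once, at alphaTub67C, against 6.89%.

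Of the 6 thresholded summits in the members' windows, 5 held less A and T than the mean of all summits. The 101 bp around the start summits held 52.5% A and T at alphaTub84B and 48.5% at betaTub60D. The summit beside betaTub56D held 52.5%, the intron summit of alphaTub84B 58.4% and the summit near betaTub85D 64.4%. All thresholded summits had a mean of 65.6% ± 9.61 (SD over 7223 summits), which that of betaTub97EF exceeded. TAAT lay within 50 bp of 3 of the members' 6 summits, against 75.0% of all thresholded summits: it occurred 4 times at betaTub97EF, once at betaTub60D and once beside betaTub56D, and not at the summits of alphaTub84B or near betaTub85D. These matches and shares describe the letters and not bound sites.

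Genes of microtubule assembly and function were examined beside the members, in 7 lists of 83 genes in all. A thresholded summit lay within 1 kb of a start site of 33 of them (39.8%), against the 28.0% of all coding genes. In the gene or 5 kb around it the count was 51 (61.4%), against 56.1%, so the lists lay nearer to the background in the wider window. In the counts by list that follow, bound means a thresholded summit within 1 kb of a start site, which 28.0% of coding genes had. Whether a neighbour's start site was nearer to the summit was not examined for these lists. Of the other tubulins, 1 of 4 was bound (25.0%). This was gammaTub23C, which encodes the gamma tubulin of body cells, with a pooled signal of 480.4 (236 and 244 in the replicates). Its signal was above that of every alpha and beta gene. Of the gamma-tubulin ring complex and its partners, which nucleate microtubules, 2 of 8 were bound (25.0%), cnn at 201 and Grip71 at 169.

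Of the CCT chaperonin and cofactors, which fold tubulin and assemble the heterodimer, 6 of 14 were bound (42.9%), against 28.0% of coding genes. The strongest were Tbcd (488), Tbca (278), CCT8 (173) and CCT5 (141). Among microtubule-associated and plus-end proteins 7 of 17 were bound (41.2%), led by shot (469), chb (444), mars (285) and Jupiter (181). Of the severing and depolymerising proteins 3 of 8 were bound (37.5%), Kat60 at 182, spas at 140.0 and Klp67A at 118.

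Of the genes for tubulin modification, 4 of 12 were bound within 1 kb of a start site (33.3%), against 28.0% of coding genes. Atat, which encodes an alpha tubulin acetyltransferase, had the highest signal of all 7 lists, 1168 (rank 102, 494 and 681 in the replicates), 131 bp upstream of its start site. TTLL12 followed with 349, and the deacetylase genes HDAC6 and Sirt2 with 219.6 and 157. Of the motors, 10 of 20 were bound, among them Dhc64C, the heavy chain of cytoplasmic dynein (726), Klc, the kinesin light chain (261), neb (176) and Dlc90F (148). The signal of alphaTub84B, 246, was thus below the strongest gene in 5 of these lists. The summit of alphaTub84B lay nearest to its own start site, which was not examined for the pathway genes. Their summits may belong to neighbours, as at betaTub56D. Those of HDAC6 and Dhc64C lay 904 and 766 bp from the start site, that of Atat 131 bp.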

How the data were processed

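Peak lists from chromatin immunoprecipitation of GFP-tagged OdsH in whole larvae were used as the authors deposited them, in dm6 coordinates. Each gives the signal that the authors' caller assigned to a peak, its summit and a −log10 q value. Per the labels, the DNA was cut to fragments of 200 to 800 bp. The sources used here do not give the aligner, the caller, the scale of the signal or the numbers of reads. Depth is therefore unknown and no counting interval was computed. Lists of another build and a control library were not analysed here.

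Summits were placed on the Ensembl BDGP6 annotation (release 115) and counted in each gene or 5 kb around it, and within 1 kb of start sites. A replicate's partner was its nearest summit within 200 bp, and the SD is over the 2 replicates. Scripts used Python 3 with numpy, pandas and matplotlib, and were tested on simulated summits. Counts stand beside the share of all coding genes, with no test. The 83 pathway genes were all matched, 14 of them through another symbol. The members, classes and lists were chosen with earlier results of these data known.

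The genes named are the 8 members, up to 4 of each pathway list with the strongest thresholded summits, neighbours whose start sites are nearer to a member's summit, and the 5 genes most like the member with the strongest start-site summit.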

Additional observations from a re-analysis of the deposited data

How the results depend on the processing

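The count of 5 bound members depended on the window: it was 3 for summits inside the gene, 3 where the nearest coding start site had to be the member's own, and 2 with the thresholded list limited to its stronger 50%. The count of 4 within 1 kb of a start site became 2 within 500 bp and 1 with that limit. Of all coding genes, 26.3% met the rule of the nearest start site. Their share under the other narrower rules is not given here, so those lower counts stand without a background. With summits counted only for the gene of the nearest start site, the strongest pooled signal of betaTub56D became 105 (from 118) and that of alphaTub67C 30.7 (from 86.8). On that rule 1 ubiquitous and 1 tissue-restricted gene were bound, from 2 of each, and 1 tissue-restricted gene was bound within 1 kb. In the gene or 5 kb around it, 2 other tubulins, 6 genes of the ring complex list and 12 of the microtubule-associated list were bound, from 1, 2 and 7, where the share of all coding genes rises from 28.0% to 56.1%. The cause was not tested beyond what each rule counts.

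With one replicate left out, the bound members were 4 to 5, those within 1 kb 3 to 4 and the ubiquitous ones 1 to 2, the lower value resting on betaTub56D in replicate 2. No value was available for alphaTub85E, nor for the median of the restricted genes under the narrower windows. One alternative, taking the strongest partner within 200 bp, was chosen after seeing the data. No paired analysis was possible because there is 1 group only.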
